A study of Mus musculus with 67 samples.

Results

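The 10 genes followed here form major histocompatibility complex (MHC) class II molecules, load them with peptide, or switch them on. They were taken by name, with no value used, and are 10 of the 24421 genes listed in each of 3 tables of mouse RNA sequencing. H2-Aa and H2-Ab1 encode the chains of I-A, and H2-Eb1 the beta chain of I-E. No protein was measured, so H2-Eb1 RNA does not show whether I-E molecules were made. Cd74 encodes the invariant chain, which escorts new class II molecules and plugs their groove. H2-DMa, H2-DMb1 and H2-DMb2 encode chains of H2-M, which helps to swap the plug for peptide, and H2-Oa and H2-Ob those of H2-O, an inhibitor of H2-M best known from B cells. Ciita encodes the transactivator that turns on class II promoters.

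As background, class II molecules show peptides from endosomes to CD4+ T cells and are made mainly by dendritic cells, B cells and activated macrophages. Ciita does not bind DNA itself but docks on RFX, CREB and NF-Y proteins that sit on the X and Y boxes of the promoters, and its own transcription is the usual switch. Ly6C+ monocytes are the classical cells that leave the marrow, Ly6C- monocytes patrol the vessel wall and arise largely from Ly6C+ cells, and Ly6Cint cells lie between them in surface staining.

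The 67 libraries fall into 28 groups of cells sorted by flow cytometry, whose polyadenylated RNA was captured with oligo-dT. In the 7-week table, 25 libraries come from C57BL/6 mice aged 7 weeks with no further allele or agent named. They cover marrow monocyte and dendritic cell progenitors (MDP, n = 4), marrow common monocyte progenitors (cMoP, n = 4), Ly6C+ monocytes of marrow (n = 3) and of blood (n = 4), blood Ly6Cint monocytes (n = 3), and Ly6C- monocytes of blood (n = 3) and of marrow (n = 4). In the knockout table, 16 libraries make up 8 groups of 2. Blood of 16-week mice on a mixed background gave ko Ly6C+ and ko Ly6Cint cells, and wt Ly6C+, wt Ly6Cint and wt Ly6C- cells. Marrow of 8-week C57BL/6 mice gave MDP, cMoP and Ly6C+ cells. The labels do not say which gene the ko mice lack, in which cells or by what allele, while the title of the series names C/EBPb. Ly6C- monocytes of ko mice are not analysed here. In the transfer table, 26 libraries of 8-week C57BL/6 mice make up 13 groups of 2. One is the marrow Ly6C+ population taken prior to transfer. The others are transferred cells (grafts) recovered from spleen and blood after 24, 36 and 48 h, and Ly6C+, Ly6Cint and Ly6C- cells of the hosts, sorted from spleen and blood at 24 h. Spleen cells were prepared there with ACK lysis and blood cells with Ficoll, so tissue and preparation cannot be told apart. Cells of the other tables, and the marrow cells of this one, were enriched by CD115. No label says whether replicates come from separate animals, so p-values may measure technical spread only, and in bulk libraries fewer cells of a type and less RNA per cell cannot be told apart.

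Levels are given as reads per 1000000 reads (RPM), and differences as differences of log2(RPM + 1) with the standard error (SE) of a limma fit. A gene was called at a Benjamini-Hochberg adjusted p under 0.05 over all genes tested in its table. Percentages of genes beside counts of members called are shares called at that adjusted p. The share of all genes with an unadjusted p under 0.05 was not computed. Counts of members under that threshold thus cannot be read as particular to them. The same holds for groups that do not overlap, whose share over all genes is given for ko against wt only. Recovered reads over the listed genes ran from 577690 to 3643327 per library in the 7-week table and from 942751 to 5478761 in the knockout table, so that 1 read was worth 0.193 to 1.11 RPM and 0.146 to 0.833 RPM. The depth of the transfer table is unknown. There 11719 and 11574 genes were above 0 before transfer, and 10389 to 11303 in host libraries. Blood grafts had 8278 and 8109 at 24 h, 10227 and 9785 at 36 h, and 8761 and 7734 at 48 h. Spleen grafts had 10970 and 9354 at 24 h, 10034 and 10864 at 36 h, and 8396 and 8614 at 48 h. The tables were scaled separately, so levels are compared only within a table. Ly6c2, which encodes a Ly6C antigen, was at 2465 to 3055 RPM in 7-week blood Ly6C+ libraries, 182 to 361 RPM in Ly6Cint and 10.9 to 53.9 RPM in Ly6C- libraries, in the order of the labels. One library, replicate 1 of 8-week marrow cMoP, stood apart in class II RNA, and the calls of the members in the knockout table are given with and without it.

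All members but Ciita and Cd74 lie in the class II region of chromosome 17. In the GENCODE annotation of GRCm38 their order there is H2-Oa, H2-DMa, H2-DMb2, H2-DMb1, H2-Ob, H2-Ab1, H2-Aa and H2-Eb1, from chr17:34092340-34095234 (H2-Oa, 5 exons) to chr17:34305867-34316674 (H2-Eb1, 6 exons). RefSeq promoter windows of 300 bases, 250 before the start site and 50 after it (GRCm38.p6), were matched for 7 members in 8 entries. The stretches printed here run 5′ to 3′ on the strand of the gene, from 70 bases before the Y box core to 20 after it. They are shown because each holds a match to the Y box core, and the H2-Oa stretch holds no other motif searched. Whether the proteins on which Ciita docks bind these stretches was not tested. Capitals mark the Y box core TGATTGG, the X1 box core AACNNATGA and the CRE-like motif TGACGTCA, searched on both strands.
H2-Aa, chr17:34287847-34287943, minus strand: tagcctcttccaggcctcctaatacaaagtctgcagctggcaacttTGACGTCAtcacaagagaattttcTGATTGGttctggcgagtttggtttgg
H2-Eb1, chr17:34305736-34305832, plus strand: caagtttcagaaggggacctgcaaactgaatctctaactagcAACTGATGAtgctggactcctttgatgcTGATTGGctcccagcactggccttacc
H2-DMb1, chr17:34153058-34153154, plus strand: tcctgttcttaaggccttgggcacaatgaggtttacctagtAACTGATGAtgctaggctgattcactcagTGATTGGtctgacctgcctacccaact
H2-DMb2, chr17:34145087-34145183, plus strand: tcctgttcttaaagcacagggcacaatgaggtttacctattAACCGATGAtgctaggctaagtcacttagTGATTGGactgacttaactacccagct
H2-Oa, chr17:34092264-34092360, plus strand: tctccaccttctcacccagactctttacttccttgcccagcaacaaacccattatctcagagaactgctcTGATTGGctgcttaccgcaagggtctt
H2-Ob, chr17:34238776-34238872, plus strand: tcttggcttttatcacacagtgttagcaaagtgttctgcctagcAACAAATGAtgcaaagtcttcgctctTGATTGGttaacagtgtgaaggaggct

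The Y box core was found in 6 of the 7 members' windows, between 45 and 92 bases before the start site, and in 7.82% of all 32851 promoter windows. X1 and Y cores stood together in H2-Eb1, H2-DMb1, H2-DMb2 and H2-Ob, with 17 to 20 bases between them, and in 0.307% of all windows. The X1 core was in 2.85% of all windows, and the CRE-like motif, present in H2-Aa, in 1.79%. Neither H2-DMa entry held any of the 3 motifs, which says only that these letters are not in these windows. H2-DMb2 holds the same pair of cores as its neighbour H2-DMb1. The transcripts of both are identical at 94.4% of 1255 aligned bases, with 221 bases in the longest identical stretch.

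In 7-week mice, RNA of the I-A chains, the I-E beta chain and the invariant chain was low in marrow progenitors. It was high in every Ly6Cint and Ly6C- library. H2-Aa had 25.8, 15.1, 37.9 and 33.8 RPM in MDP, 8.26, 11.6, 17.6 and 19.2 RPM in cMoP and 55.6, 80.9 and 69.6 RPM in marrow Ly6C+ cells. In blood it had 247, 262, 184 and 181 RPM in Ly6C+, 2493, 2366 and 2604 RPM in Ly6Cint and 2409, 4644 and 3748 RPM in Ly6C- libraries. Marrow Ly6C- libraries had 1959.6, 3641, 2468 and 2944 RPM. The Ly6Cint and Ly6C- libraries thus lay apart from all others, and those 3 groups overlapped one another.

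Along the progenitors the steps were mixed. In cMoP against MDP 3 of the 9 members tested were called, all lower in cMoP (H2-DMb2 was too low to test), where 9.25% of 11373 genes were called in either direction. They were H2-Ob (-1.78, SE 0.37, adjusted p = 0.00116), H2-Aa (-0.93, SE 0.25, adjusted p = 0.0133) and H2-DMa (-0.64, SE 0.19, adjusted p = 0.023). Without cMoP replicate 2 that count was 1. In marrow Ly6C+ cells against cMoP 5 of 9 were higher and 1 lower (37.7% of genes called), with Cd74 the most changed of those higher (2.96, SE 0.44, adjusted p = 3.32e-06) and H2-Ob the one lower (-1.15, SE 0.40, adjusted p = 0.0235).

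Blood Ly6C+ cells differed from marrow Ly6C+ cells in 6 of 9 members, 5 higher and 1 lower (26% of genes called). Ciita had 7.59, 7.68, 4.4 and 2.58 RPM in blood and 0.772, 0.608 and 0.725 RPM in marrow Ly6C+ libraries (1.86, SE 0.37, adjusted p = 0.00031). All 4 blood libraries lay above the 3 of marrow, whose levels were so near 0 that the size of the difference depends on the 1 RPM added. H2-Oa was the one lower in blood (-1.14, SE 0.38, adjusted p = 0.0246).

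**Figure D1:**
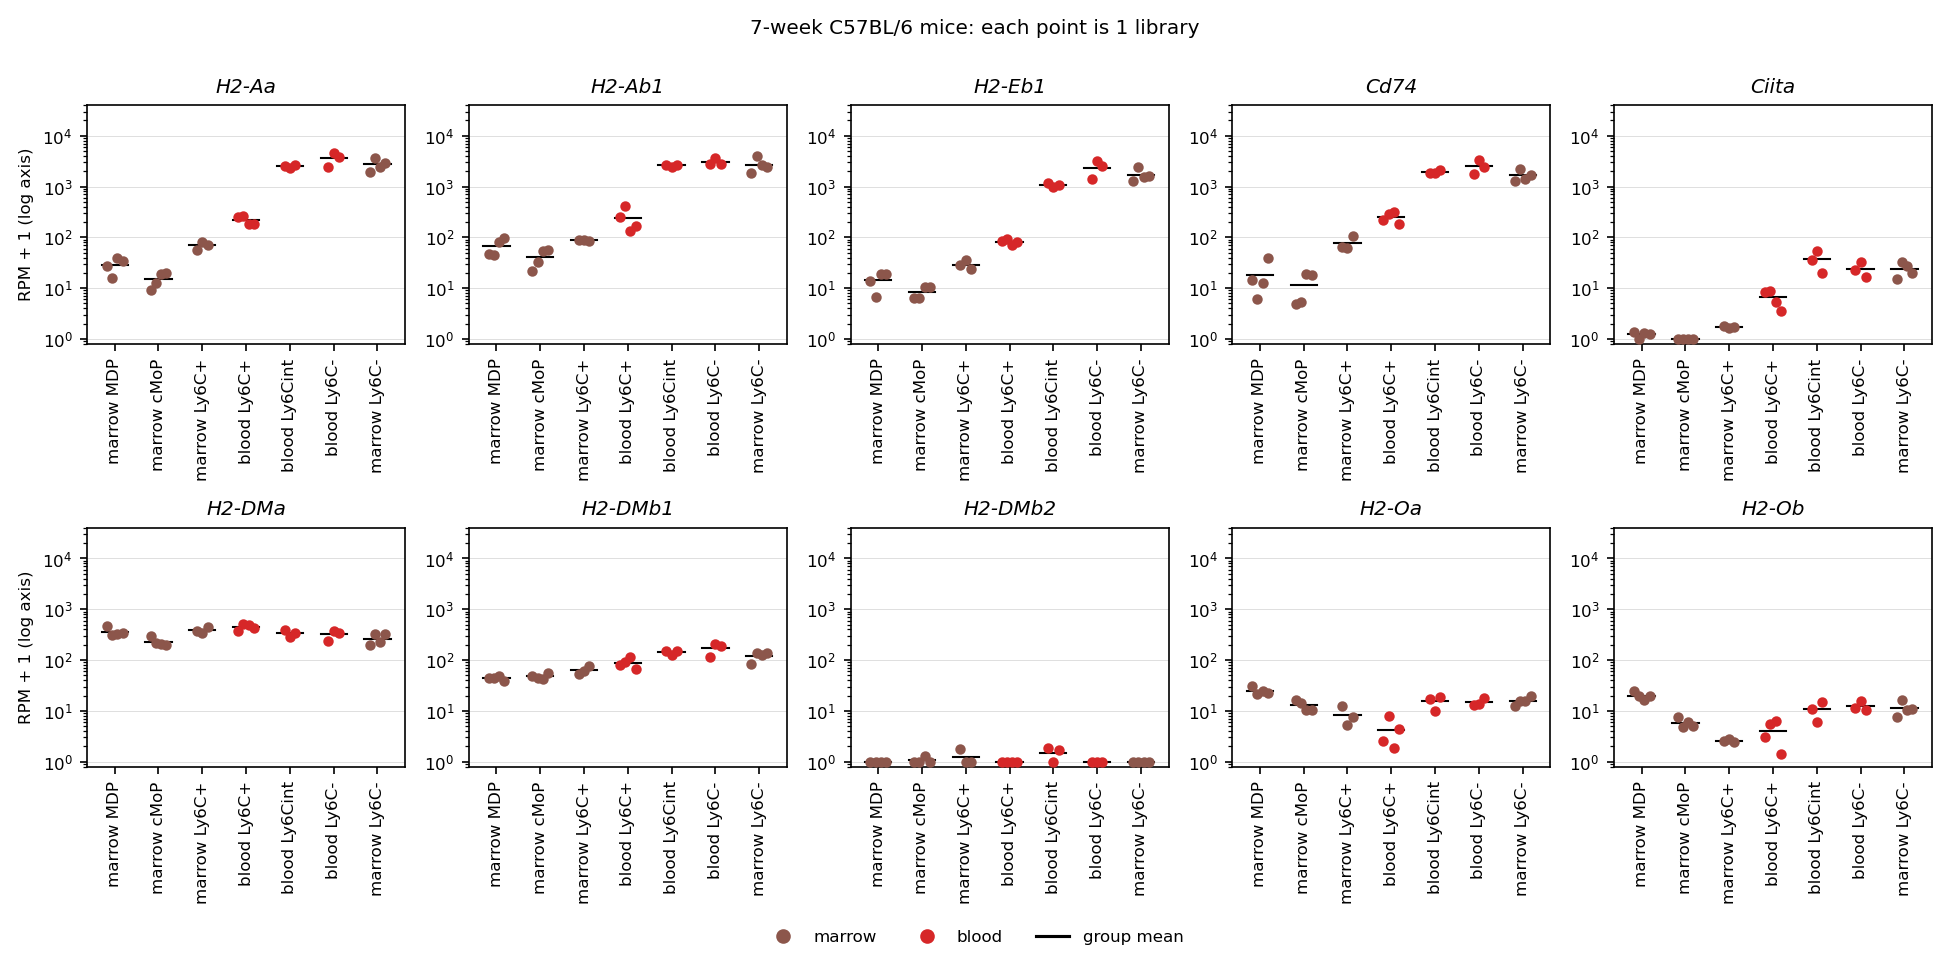
RPM plus 1 (log axis) of each member in every 7-week library, by group along the monocyte path; points are libraries and bars group means. H2-Aa lies at 2366 to 2604 RPM in Ly6Cint libraries and at 181 to 262 RPM in blood Ly6C+ libraries, while H2-DMa lies between 193 and 515 RPM in all libraries.

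At the Ly6Cint step the chain genes changed most. In blood Ly6Cint against Ly6C+ cells 8 of 9 members were higher and 0 lower, where 27.2% of genes were called, and the median difference was 2.46 over the members and -0.21 over all genes. H2-Eb1 had 1195, 988 and 1063 RPM in Ly6Cint and 84, 90.7, 71.3 and 79.9 RPM in Ly6C+ libraries, a ratio of means of 13.3 (3.72, SE 0.29, adjusted p = 3.04e-10). Cd74 had 1863, 1857 and 2091 RPM in Ly6Cint and 215, 284, 309.9 and 184 RPM in Ly6C+ libraries, a ratio of 7.8 (2.99, SE 0.44, adjusted p = 1.39e-05). The groups did not overlap for either gene. The ratios of means were 11.4 for H2-Aa (3.52, SE 0.27, adjusted p = 2.89e-10) and 10.8 for H2-Ab1 (3.56, SE 0.32, adjusted p = 4.77e-09).

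Ciita changed in the same direction. It had 35.1, 53.6 and 18.8 RPM in Ly6Cint and 7.59, 7.68, 4.4 and 2.58 RPM in Ly6C+ libraries, a ratio of means of 6.44 (2.46, SE 0.37, adjusted p = 1.96e-05), with no overlap. Its Ly6Cint values overlapped those of blood Ly6C- libraries, at 22, 32.1 and 15.3 RPM. Over the 25 libraries Ciita had a Pearson r of 0.971 with the mean of the 4 chain and invariant chain genes, and H2-DMb1 0.935. Over the 16 libraries of the knockout table r was 0.975 for Ciita and 0.914 for H2-DMb1, and it was 0.759 for Ciita and 0.635 for H2-DMb1 over the 26 of the transfer table. These are descriptions, since libraries of 1 group share their origin.

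The H2-M chains differed from each other. H2-DMb1 had 150.3, 126 and 148 RPM in Ly6Cint and 78.4, 89.1, 112 and 65.7 RPM in Ly6C+ libraries (0.73, SE 0.21, adjusted p = 0.00962), with no overlap. H2-DMa was already present in progenitors, at 476, 309.8, 319.9 and 333 RPM in MDP. It had 386, 282 and 342 RPM in Ly6Cint and 368, 515, 490.4 and 421 RPM in Ly6C+ libraries, which overlapped, and it was not called (-0.41, SE 0.20, adjusted p = 0.127). Its r with the chain genes over the 25 libraries was 0.011, and it was 0.636 in the knockout table and 0.39 in the transfer table.

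Both H2-O chains had more RNA in every MDP library than in any blood Ly6C+ library, and were higher in Ly6Cint than in blood Ly6C+ cells. MDP were not compared with blood Ly6C+ cells in a fit, and the share of all genes so separated was not computed. H2-Oa had 29.3, 20.5, 23.7 and 21.4 RPM in MDP and 9.39 to 15.5 RPM in cMoP. It had 15.9, 9.1 and 18.1 RPM in Ly6Cint and 1.52, 6.91, 0.88 and 3.44 RPM in blood Ly6C+ libraries (2.04, SE 0.38, adjusted p = 0.000242), with no overlap. H2-Ob had 23.8, 18.2, 15.4 and 18.7 RPM in MDP, and 5.06 to 13.9 RPM in Ly6Cint against 0.43 to 5.28 RPM in Ly6C+ libraries, which overlapped (1.51, SE 0.40, adjusted p = 0.00665). H2-DMb2 was seen with at most 1 read in any 7-week library. How reads that match both H2-DMb1 and H2-DMb2 were assigned is not given in the sources used here, so the levels of both are uncertain.

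Past Ly6Cint the 7-week levels stayed up. In blood Ly6C- against Ly6Cint cells 1 of 9 members was called, H2-Eb1, where 8.87% of genes were called. It had 1417, 3167 and 2526 RPM in Ly6C- and 1195, 988 and 1063 RPM in Ly6Cint libraries (1.06, SE 0.31, adjusted p = 0.032), with no overlap. The call was lost without any 1 of the 3 Ly6Cint libraries and without Ly6C- replicate 2 or 3. Against Ly6C+ cells of the same tissue, 8 of 9 members were higher in blood Ly6C- cells (20.3% of genes called), and in marrow 8 were higher and H2-DMa lower (40.1% of genes called), with H2-Aa at 5.28, SE 0.27, adjusted p = 5.47e-15. Between marrow and blood Ly6C- cells 0 of 9 members were called by limma (2.54% of genes) and 0 by edgeR (2.15% of genes), and 1 had an unadjusted p under 0.05. Without blood Ly6C- replicate 1 that count was 1.

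Other genes of the pathway, on lists chosen with earlier results known, were called in both directions at the 7-week Ly6Cint step, where 27.2% of all genes were called. Of 7 genes of the promoter-bound complex 0 were higher and 1 lower, Rfxap, a subunit of RFX (-1.04, SE 0.28, adjusted p = 0.00697). Of 8 endosomal processing genes 0 were higher and 3 lower, among them Ifi30, which reduces disulfide bonds of antigens (-1.38, SE 0.18, adjusted p = 3.58e-06), and Ctsd, an aspartic protease (-0.99, SE 0.17, adjusted p = 0.000113). Of 8 genes upstream of Ciita 1 was higher, Spi1, which encodes PU.1 (0.79, SE 0.20, adjusted p = 0.0051), and 2 were lower, among them the transcription factor gene Irf8 (-1.15, SE 0.26, adjusted p = 0.00198). Of 5 surface control and costimulation genes 2 were higher and 1 lower. Cd83, whose product helps to keep class II molecules at the surface, was higher (2.41, SE 0.33, adjusted p = 5.88e-06), and Cd40 lower (-1.22, SE 0.29, adjusted p = 0.00289). Of 11 class I presentation genes 1 was higher and 3 lower, among them Tap2, a peptide transporter subunit (-1.41, SE 0.28, adjusted p = 0.000484).

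At that step 4.29% of all genes were called in wt blood, 1.16% in host blood and 0.562% in host spleen. Of the promoter complex 0 of 7 were called in wt blood, host blood and host spleen. Cd83 was higher in wt blood (2.82, SE 0.45, adjusted p = 0.0016). Ifi30 was lower in wt blood (-1.13, SE 0.22, adjusted p = 0.00781) and in host blood (-1.37, SE 0.22, adjusted p = 0.00128), and Ctsb, a cysteine protease, higher in wt blood (0.93, SE 0.18, adjusted p = 0.0061) and in host blood (0.82, SE 0.17, adjusted p = 0.0102).

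Markers of other cells moved in part with the 7-week step. Of 11 B cell markers Cd79a, Cr2, Ms4a1 and Pax5 were at 0 in all Ly6Cint libraries. Their sum was 37.4 to 53.6 RPM in Ly6Cint and 33.1 to 49.2 RPM in Ly6C+ libraries, most of it Cd79b, and Cd22 was higher of 3 tested (1.05, SE 0.38, adjusted p = 0.039). The 10 dendritic cell markers summed to 229 to 256 RPM in Ly6Cint and 138 to 174 RPM in Ly6C+ libraries, with Cd209a (2.09, SE 0.32, adjusted p = 2.66e-05) and Clec9a higher of 7 tested and Xcr1 at 0. The 10 tissue macrophage markers summed to 231 to 368 RPM in Ly6Cint and 120.4 to 518 RPM in Ly6C+ libraries, with Cd163 and Spic higher of 7 tested and Mertk and Vcam1 at 0 in Ly6Cint. The part of these cells in the class II levels was not tested.

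The genes most like the 4 chain and invariant chain genes over the 25 libraries, out of 7381 with a group mean of at least 20 RPM, were Cyth3 (r = 0.987), Cd300ld, Pltp, Cd36, Nfkbiz, Ear1, Ltb, Cdk14, Tgfbr2 and Ryr1 (r = 0.972). Their likeness was lower in the other tables. For Cyth3 r was 0.515 over the 16 libraries of the knockout table and 0.427 over the 26 of the transfer table, and for Pltp 0.837 and 0.585.

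In the knockout table Cebpb, which encodes C/EBPb, was checked first. It had 115 and 57.2 RPM in ko and 804 and 693 RPM in wt Ly6C+ libraries, and 186 and 67.1 RPM in ko and 1734 and 1242 RPM in wt Ly6Cint libraries (-3.70, SE 0.38, adjusted p = 4.82e-05 in Ly6Cint). Wt Ly6C- libraries had 1936 and 1549 RPM. Every ko library lay below every wt library. Ly6c2 had 347 and 470 RPM in ko and 93.7 and 185 RPM in wt Ly6Cint libraries, without overlap. In Ly6C+ libraries it had 2233 and 2364 RPM in ko and 1620 and 2275 RPM in wt mice, which overlapped. Whether the Ly6Cint gates of both genotypes hold alike cells was not tested.

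Class II RNA was higher in ko monocytes of both gates. H2-Aa had 20988 and 22959.6 RPM in ko and 4866 and 5505 RPM in wt Ly6Cint libraries, a ratio of means of 4.24. In Ly6C+ libraries it had 8055 and 5986 RPM in ko and 888 and 1007 RPM in wt mice, a ratio of 7.41, so that both ko Ly6C+ libraries lay above both wt Ly6Cint libraries. Ciita had 671 and 664 RPM in ko and 115 and 79.1 RPM in wt Ly6Cint libraries, and 284 and 193 RPM in ko and 52.9 and 31.9 RPM in wt Ly6C+ libraries. The 4 chain and invariant chain genes together made up 5.86% and 5.87% of the ko and 1.36% and 1.33% of the wt Ly6Cint libraries.

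For each of the 9 members tested every ko library held more RNA than every wt library in both gates. With 2 libraries a group this held for 25.6% of all genes tested in the Ly6Cint gate and for 23.7% in the Ly6C+ gate. The fit called part of the members. In the Ly6Cint gate 5 of 9 were called, all higher in ko, where 6.33% of 11388 genes were called. They were H2-DMa (1.76, SE 0.17, adjusted p = 2.62e-05), H2-DMb1 (2.16, SE 0.23, adjusted p = 6.98e-05), H2-Ob (2.34, SE 0.41, adjusted p = 0.00325), Ciita (2.79, SE 0.56, adjusted p = 0.0067) and H2-Ab1 (2.46, SE 0.59, adjusted p = 0.0214). In the Ly6C+ gate 4 of 9 were called, all higher in ko (1.26% of genes): H2-DMb1, H2-DMa, Ciita (2.48, SE 0.56, adjusted p = 0.0431) and H2-Eb1 (3.34, SE 0.77, adjusted p = 0.0482). H2-Aa was not called in the Ly6Cint (2.08, SE 0.72, adjusted p = 0.114) or the Ly6C+ gate (2.88, SE 0.72, adjusted p = 0.0728). The count was 3 in the Ly6Cint gate without either ko library, and 2 in the Ly6C+ gate without any 1 of its 4 libraries.

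The shared spread took in the cMoP pair, with 722 RPM of H2-Aa in replicate 1 and 51.2 RPM in replicate 2. In a fit without replicate 1, chosen after seeing the data, 8 of 9 members were called in the Ly6Cint gate, all higher in ko (7.35% of genes called), and H2-Oa was not. In the Ly6C+ gate 7 of 9 were called, all higher in ko (1.53% of genes), and the H2-O chains were not. H2-Aa was then called in the Ly6Cint (2.08, SE 0.18, adjusted p = 3.26e-05) and the Ly6C+ gate (2.88, SE 0.18, adjusted p = 3.11e-06).

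**Figure D2:**
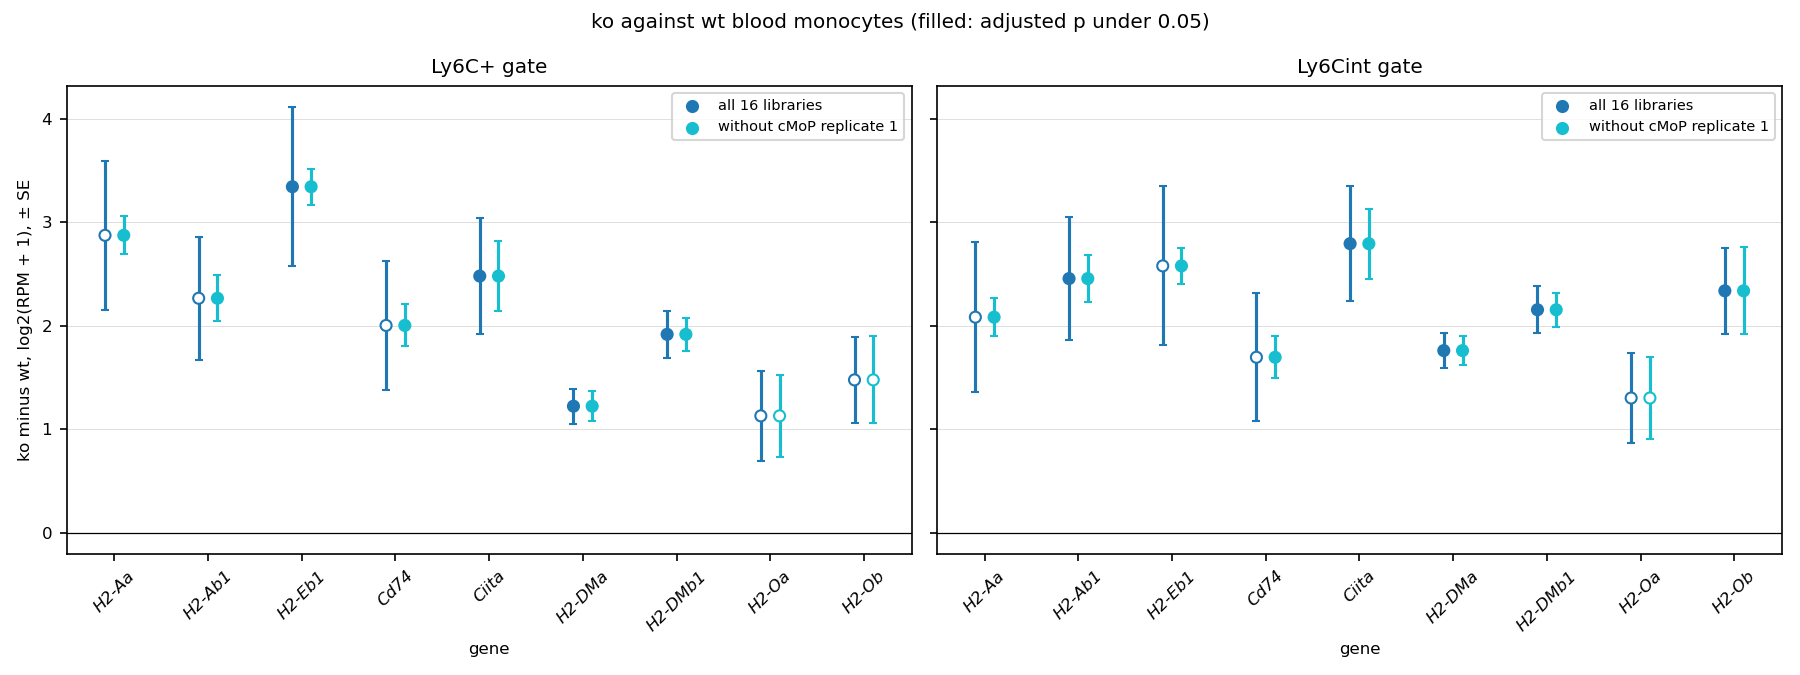
Difference of log2(RPM + 1), ko minus wt, with SE, for 9 members in each gate, in the fit of all 16 libraries and in the fit without cMoP replicate 1; filled points have an adjusted p under 0.05. All differences lie above 0, and 5 members are called in the Ly6Cint gate with all libraries and 8 without that library.

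The H2-M chains H2-DMa and H2-DMb1 had the smallest errors in the fit of all libraries. That order depends on the cMoP pair, whose spread the fit shares. Without cMoP replicate 1 the error of H2-Aa was far smaller, so the order does not set the H2-M chains apart. H2-DMa had 1632 and 1630.1 RPM in ko and 469.8 and 491 RPM in wt Ly6Cint libraries, and 1172 and 1185 RPM in ko and 487 and 522 RPM in wt Ly6C+ libraries. H2-DMb1 had 1498 and 1503 RPM in ko and 339.5 and 332 RPM in wt Ly6Cint libraries. In the same libraries H2-Ob had 33.3 and 27.9 RPM in ko and 6.00 and 4.54 RPM in wt mice, and H2-Oa 27.6 and 20.1 RPM in ko and 10.1 and 7.94 RPM in wt mice.

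**Figure D3:**
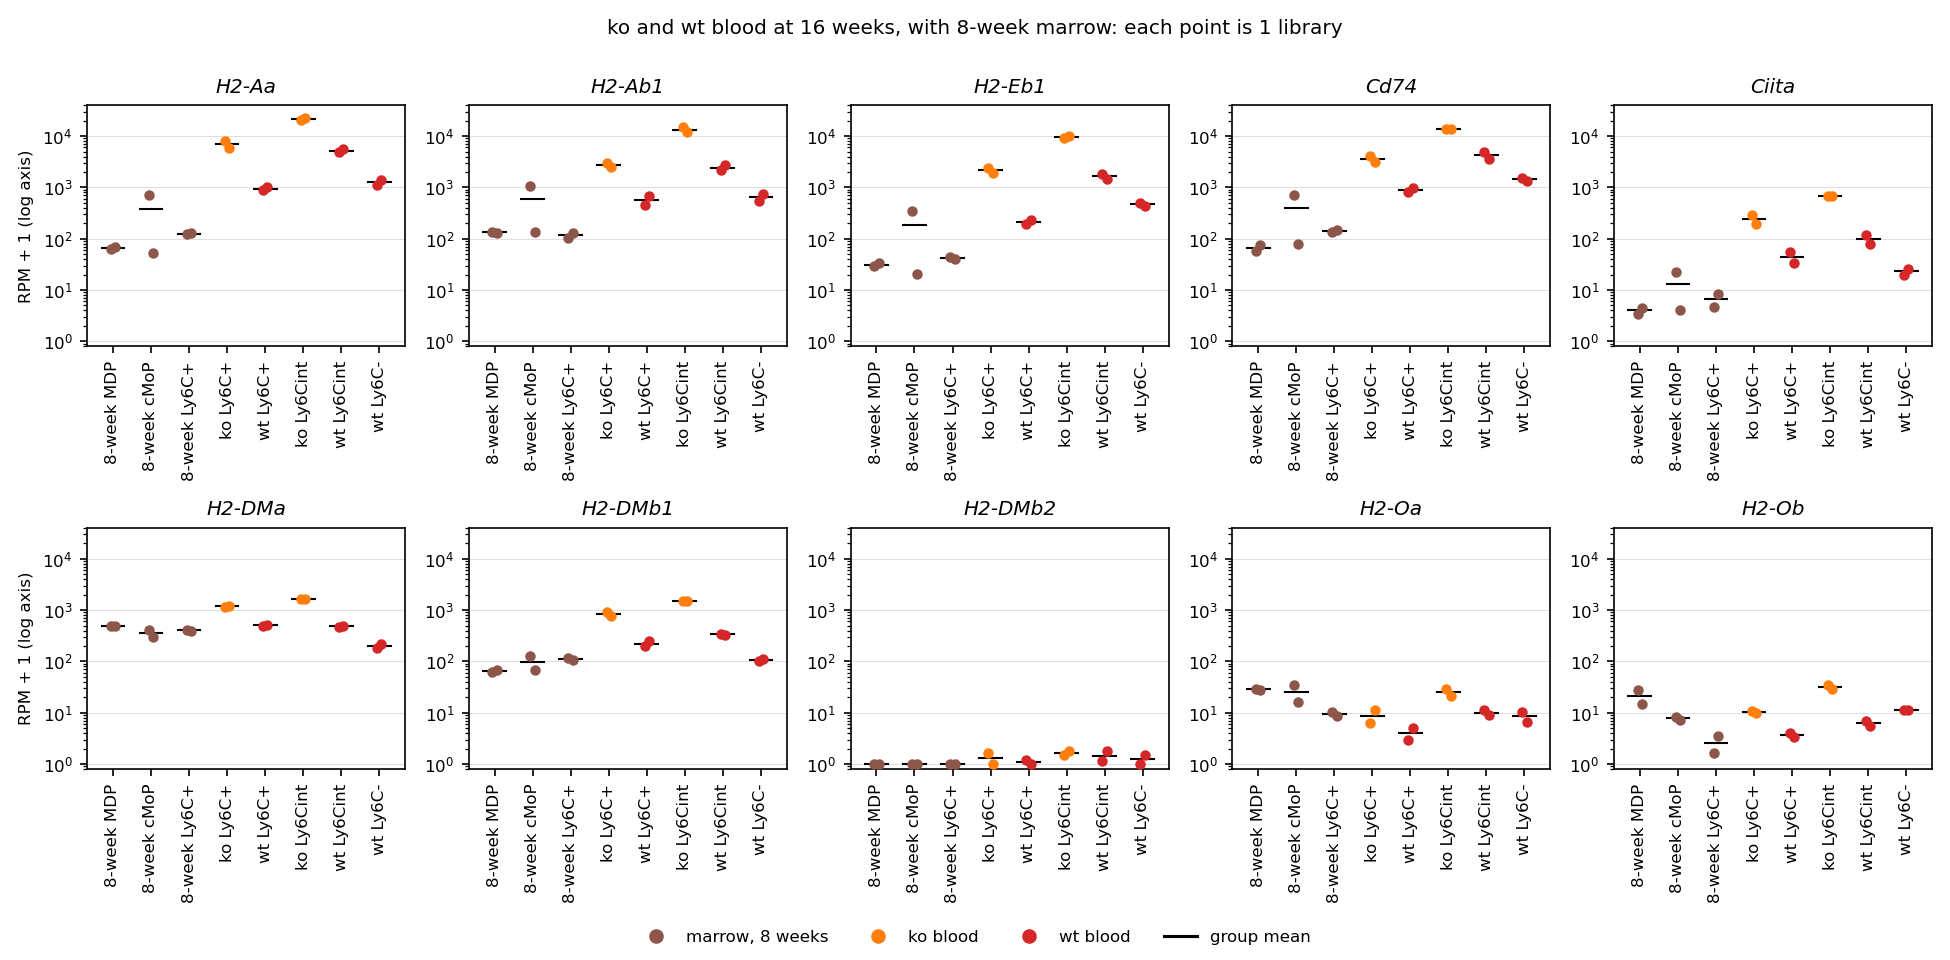
RPM plus 1 (log axis) of each member in every library of the knockout table; points are libraries and bars group means. Both ko groups lie above the wt groups of the same gate for 9 members, and cMoP replicate 1 lies above replicate 2 for the chain genes.

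The step between Ly6Cint and Ly6C+ cells was compared in both genotypes. In ko blood 0 of 9 members were called by limma (1.64% of genes) and 3 by edgeR (1.62% of genes). All 9 had an unadjusted p under 0.05, a threshold for which the share of all genes was not computed. In wt blood 1 of 9 was called, H2-Eb1 (2.93, SE 0.77, adjusted p = 0.0429; 4.29% of genes), a call lost without any 1 of the 4 libraries compared. Without cMoP replicate 1, 6 were higher in Ly6Cint cells of ko blood (1.98% of genes) and 5 in those of wt blood (4.99% of genes). The step in ko minus that in wt was called for 0 of 9 members by limma, with or without that library (0.00878% of genes in both), and for 0 by edgeR (0.0176% of genes), and 1 had an unadjusted p under 0.05. For H2-Aa that difference of steps was -0.79 (SE 1.02), too wide to show whether the steps are alike.

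In wt blood most Ly6C- levels lay below those of Ly6Cint cells. H2-Aa had 888 and 1007 RPM in Ly6C+, 4866 and 5505 RPM in Ly6Cint and 1093 and 1407 RPM in Ly6C- libraries. Ciita had 52.9 and 31.9 RPM in Ly6C+, 115 and 79.1 RPM in Ly6Cint and 19 and 25.2 RPM in Ly6C- libraries. Both genes thus peaked in Ly6Cint with no overlap. In Ly6C- against Ly6Cint cells 2 of 9 members were called, both lower (0.448% of genes): H2-DMa (-1.25, SE 0.17, adjusted p = 0.00356) and H2-DMb1 (-1.66, SE 0.23, adjusted p = 0.00438). Without Ly6C- replicate 1 that count was 0. Without cMoP replicate 1 it was 7, all lower (0.65% of genes), with H2-Aa at -2.06, SE 0.18, adjusted p = 0.000131. H2-Ob lay the other way, with 10.2 and 10.3 RPM in Ly6C- and 6.00 and 4.54 RPM in Ly6Cint libraries, without overlap, and was not called (0.85, SE 0.41, adjusted p = 0.565).

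The 8-week marrow comparisons rested on the cMoP pair itself. In cMoP against MDP 0 of 9 members were called by limma (4.85% of genes) and 4 by edgeR (2.63% of genes). An unadjusted p under 0.05 was seen for 7, without a share of all genes to set beside it. In marrow Ly6C+ cells against cMoP 3 were called, all lower (36.8% of genes): H2-Ob, H2-Oa and H2-Ab1. Without cMoP replicate 1 the first count was 1, H2-DMa, lower in cMoP (3.5% of genes), and in the second 4 were higher and 1 lower in Ly6C+ cells (27.4% of genes), with H2-Aa at 1.26, SE 0.22, adjusted p = 0.00113 in place of -0.63, SE 0.72, adjusted p = 0.524. Without cMoP replicate 2 the counts were 6 and 7, and without Ly6C+ replicate 1 or 2 the second was 0 and 1. B cell markers summed to 115 RPM in cMoP replicate 1 and 109 RPM in replicate 2, with Ms4a1, Pax5 and Cr2 at 0 in both, and dendritic cell markers to 63.5 and 48.1 RPM.

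Markers of other cells differed between ko and wt Ly6Cint cells as well. Of 7 tissue macrophage markers tested 5 were higher in ko, among them Cd163, a scavenger receptor (2.55, SE 0.43, adjusted p = 0.00215), and C1qb, a chain of complement C1q (3.68, SE 0.72, adjusted p = 0.0058). All 10 summed to 450.1 and 908 RPM in ko and 89.7 and 85.9 RPM in wt libraries, with Slc40a1, Timd4 and Vcam1 at 0 in both. Dendritic cell markers summed to 422 and 446 RPM in ko and 134 and 138 RPM in wt libraries, with Batf3 (2.01, SE 0.37, adjusted p = 0.00393) and Cd209a higher of 7 tested and Fscn1 at 0 in ko. B cell markers summed to 37.6 and 46.2 RPM in ko and 21.1 and 19.3 RPM in wt libraries, most of it Cd79b (1.07, SE 0.22, adjusted p = 0.00869), with Ms4a1, Pax5, Cr2, Blk and Fcmr at 0 in both. In the Ly6C+ gate 3 of 7 tissue macrophage markers were higher in ko, C1qb (3.69, SE 0.72, adjusted p = 0.0212), C1qc and Cd163, and all 10 summed to 159 and 255 RPM in ko and 46.3 and 31 RPM in wt libraries, with Mertk, Slc40a1 and Timd4 at 0 in both. Dendritic cell markers summed to 242 and 214 RPM in ko and 140.1 and 137 RPM in wt libraries there, with 0 of 7 called and Xcr1 and Ccr7 at 0 in both. B cell markers summed to 40.5 and 37.7 RPM in ko and 24.5 and 29.5 RPM in wt libraries, with 0 of 3 called and Ms4a1, Pax5 and Cr2 at 0 in both. Without cMoP replicate 1 the counts of these marker lists were as given in both gates, but for 1 dendritic cell marker higher in the Ly6C+ gate, Cd209a. The part of these cells in the class II difference was not tested in either gate. Of 10 markers of the sorted populations 4 were lower in ko Ly6Cint cells, among them Ace (-2.11, SE 0.23, adjusted p = 9.11e-05) and Nr4a1, a nuclear receptor that Ly6C- monocytes need (-1.83, SE 0.26, adjusted p = 0.000765). Without cMoP replicate 1 that count was 5.

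Other genes of class II presentation are read against the 6.33% of all genes called between the genotypes in the Ly6Cint gate. Of 7 promoter complex genes 0 were called. Of 8 genes upstream of Ciita 0 were higher and 1 lower, Ifngr1, a chain of the interferon gamma receptor (-0.87, SE 0.18, adjusted p = 0.00813). Of 8 endosomal processing genes Ifi30 was higher (0.93, SE 0.22, adjusted p = 0.0213) and Ctsb lower (-1.06, SE 0.18, adjusted p = 0.00215). Of 11 class I presentation genes 1 was called, Calr, higher (0.87, SE 0.21, adjusted p = 0.0225). The counts of these lists were the same without cMoP replicate 1.

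In the hosts of the transfer experiment Ly6Cint cells again held the most H2-Aa RNA. It had 747 and 1252 RPM in Ly6C+, 8903 and 9551 RPM in Ly6Cint and 5647 and 6259 RPM in Ly6C- cells of the spleen. In blood it had 1645 and 845 RPM in Ly6C+, 5742 and 2649 RPM in Ly6Cint and 1023 and 456 RPM in Ly6C- cells. Ly6Cint libraries did not overlap the others of their tissue. All 10 members passed the filter here, H2-DMb2 through graft libraries alone. H2-DMb2 was at 0 in every host library. It could thus not be called in any comparison among host cells, though it is counted in the 10 there.

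At the Ly6Cint step 4 of 10 members were called in spleen, all higher (0.562% of 12096 genes), and 2 in blood, both higher (1.16% of genes). H2-Eb1 was higher in spleen (3.84, SE 0.57, adjusted p = 0.000901) and in blood (2.40, SE 0.57, adjusted p = 0.0391), and so was H2-Aa (3.25, SE 0.41, adjusted p = 0.00012 in spleen and 1.72, SE 0.41, adjusted p = 0.0391 in blood). The blood count was 0 without Ly6Cint replicate A or without either Ly6C+ library. The step in spleen minus that in blood was called for 0 of 10 members (0.00827% of genes), 4 of which had an unadjusted p under 0.05.

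Past Ly6Cint the calls were few. In spleen Ly6C- against Ly6Cint cells 0 of 10 members were called (0.215% of genes), 3 with an unadjusted p under 0.05. There H2-Oa had 92.9 and 84.2 RPM in Ly6C- and 40.8 and 38.6 RPM in Ly6Cint libraries (1.14, SE 1.17, adjusted p = 1), and H2-Ob 81.1 and 73.6 RPM in Ly6C- and 35.1 and 22.8 RPM in Ly6Cint libraries (1.42, SE 0.94, adjusted p = 1). Neither overlapped, and both lay the other way from the chain genes, though uncalled. How often groups this small separate over all genes was not computed here, so no opposite change is claimed. In blood 1 of 10 was called, H2-Aa, lower in Ly6C- cells (-2.51, SE 0.41, adjusted p = 0.0109; 0.107% of genes), and 0 without Ly6Cint replicate A or Ly6C- replicate B. The difference, spleen minus blood, was called for 0 of 10 members (0% of genes), 4 with an unadjusted p under 0.05, and was 1.88 (SE 0.58) for H2-Aa.

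Between tissues, Ly6C- cells of spleen exceeded those of blood in 4 of 10 members (0.19% of genes called): H2-Aa (3.12, SE 0.41, adjusted p = 0.000733), H2-Eb1 (3.41, SE 0.57, adjusted p = 0.00703), H2-DMa (1.70, SE 0.31, adjusted p = 0.0143) and H2-Ab1 (2.79, SE 0.55, adjusted p = 0.0331). Without blood replicate B the count was 0, and without either spleen library it was 1. Ciita had 356 and 295 RPM in spleen and 43.4 and 9.2 RPM in blood Ly6C- libraries, without overlap, and was not called (3.93, SE 0.90, adjusted p = 0.0878). For Ly6Cint cells 0 of 10 members were called between tissues (0.165% of genes), 5 with an unadjusted p under 0.05, and for Ly6C+ cells 0 of 10 (0.0909% of genes), 0 with an unadjusted p under 0.05.

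Markers of B cells and dendritic cells were also high in spleen Ly6C- libraries. The H2-O chains, not called there, had 92.9 and 84.2 RPM in spleen and 10.1 and 5.26 RPM in blood for H2-Oa, and 81.1 and 73.6 RPM in spleen and 13.6 and 6.57 RPM in blood for H2-Ob. The 11 B cell markers summed to 372 and 498 RPM in spleen and 124 and 107 RPM in blood, with Pax5 at 0 in both. The 10 dendritic cell markers summed to 532 and 497 RPM in spleen and 113 and 98.2 RPM in blood. Xcr1 was at 0 in both, Zbtb46 at 0 in spleen only and Clec9a at 0 in blood only. The largest part in spleen was Cd209a, with a mean of 290.1 RPM there and 21.91 RPM in blood. Tissue macrophage markers did not all move this way. C1qb had a mean of 39.66 RPM in spleen and 94.44 RPM in blood, and C1qa 24.54 and 23.45 RPM. The part of these cells in the class II difference was not tested.

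**Figure D4:**
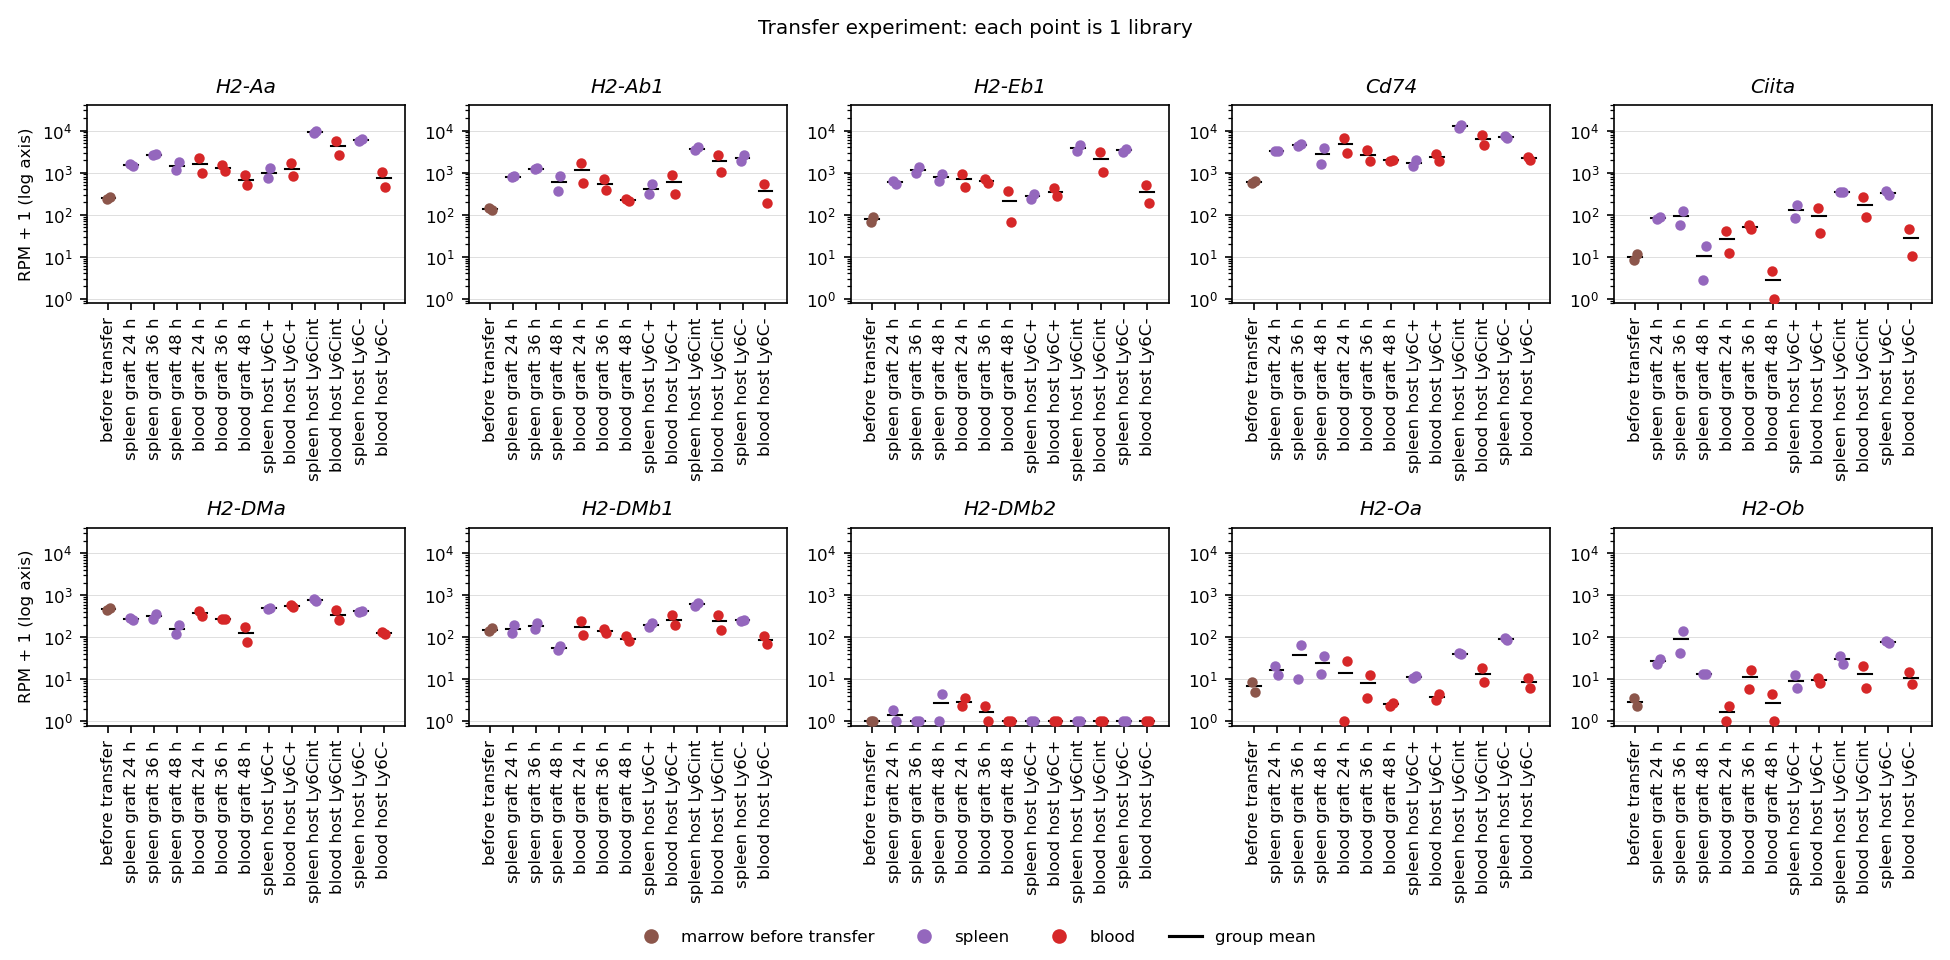
RPM plus 1 (log axis) of each member in every transfer library: marrow cells before transfer, grafts by hour, and host gates; points are libraries and bars group means. Host spleen Ly6Cint libraries are the highest for H2-Aa, and all graft libraries lie above the marrow cells for that gene.

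Transferred marrow monocytes held more RNA of the 4 chain and invariant chain genes at 24 h, and H2-DMa lay lower in every graft library without being called. H2-Aa had 235 and 262 RPM before transfer. In blood grafts it had 2207 and 999 RPM at 24 h, 1536 and 1098 RPM at 36 h and 857 and 499.6 RPM at 48 h. In spleen grafts it had 1626 and 1443 RPM at 24 h, 2588 and 2767 RPM at 36 h and 1166 and 1769.9 RPM at 48 h. The highest pair in spleen was that of 36 h, while in blood the 24 h libraries spanned those of 36 h.

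At 24 h against before transfer 4 of 10 members were higher in blood grafts (13.3% of genes called) and 6 in spleen grafts (5.8% of genes), and 0 were lower in either. Cd74 was higher in blood (2.89, SE 0.36, adjusted p = 1.08e-05) and in spleen (2.45, SE 0.36, adjusted p = 0.000106), as was H2-Aa (2.57, SE 0.41, adjusted p = 0.000182 in blood and 2.62, SE 0.41, adjusted p = 0.000241 in spleen). H2-DMa had 421 and 323 RPM in blood grafts, 294 and 260.3 RPM in spleen grafts and 458 and 498 RPM before transfer, with no overlap, and was not called in blood (-0.37, SE 0.31, adjusted p = 0.475) or in spleen (-0.79, SE 0.31, adjusted p = 0.179). The median difference over all genes was -0.53 in blood and -0.21 in spleen. Ciita (3.08, SE 0.90, adjusted p = 0.0442) and H2-Ob (3.19, SE 0.94, adjusted p = 0.0469) were called in spleen and not in blood, and the difference between tissues was not tested. Without either library of the cells before transfer, or without graft replicate C, 3 were called in spleen. Markers of other cells moved with the spleen result. B cell markers summed to 633 and 257 RPM in spleen grafts, 92.9 and 215 RPM in blood grafts and 38.6 and 40.3 RPM before transfer, and 6 of 10 tested were higher in spleen grafts, among them Cd22 (5.26, SE 1.15, adjusted p = 0.00581). Tissue macrophage markers summed to 183 and 939 RPM in spleen grafts, 122 and 49.5 RPM in blood grafts and 90.7 and 166 RPM before transfer, and 4 of 10 were higher in spleen grafts, among them Slc40a1 (4.85, SE 0.97, adjusted p = 0.00265) and Vcam1 (5.94, SE 1.26, adjusted p = 0.00455), with Timd4 at 0 in all 3 groups. T and NK cell markers summed to 119 and 68.4 RPM in spleen grafts, 7.89 and 7.89 RPM in blood grafts and 2.19 and 6.57 RPM before transfer, and 3 of 9 were higher in spleen grafts, among them Cd3e (2.95, SE 0.64, adjusted p = 0.00518). Dendritic cell markers summed to 204 and 164 RPM in spleen grafts, 67.9 and 126 RPM in blood grafts and 89 and 92.5 RPM before transfer, and 0 of 10 were higher. In blood grafts 0 markers of these 4 lists were higher and 1 was lower. The part of these cells in the class II levels was not tested.

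At 48 h against 24 h, 5 of 10 members were lower in blood grafts (8.09% of genes called): Cd74, Ciita, H2-Ab1, H2-Eb1 and H2-DMa. Grafts of both times had fewer genes above 0 than the cells before transfer. The part of this in falls of low members such as Ciita was not tested. H2-DMa had 170.5 and 74.9 RPM at 48 h and 421 and 323 RPM at 24 h (-1.70, SE 0.31, adjusted p = 0.0017). The count was 2 without 24 h replicate AC and 1 without 48 h replicate B. In spleen 2 of 10 were lower (2.41% of genes), H2-DMb1 and Ciita, which had 1.75 and 17.1 RPM at 48 h and 78.4 and 86.8 RPM at 24 h (-3.56, SE 0.90, adjusted p = 0.0362). That count was 1 without 24 h replicate B and 0 without 24 h replicate C or 48 h replicate B.

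Set against host cells, spleen grafts held less. At 24 h they were lower than host spleen Ly6Cint cells in 5 of 10 members (0.265% of genes called), with H2-Aa at -2.59, SE 0.41, adjusted p = 0.0107, and the count was 0 without graft replicate C or without either host library. Blood grafts at 24 h differed from host blood Ly6Cint cells in 0 of 10 members (3.94% of genes), 5 with an unadjusted p under 0.05. That count was 2 without graft replicate AC and 1 without host replicate B. At 48 h spleen grafts were lower than host spleen Ly6C- cells in 7 of 10 members (5.44% of genes), with Ciita at -5.53, SE 0.90, adjusted p = 0.00153, and in 2 without either host library and 4 without graft replicate B. Blood grafts at 48 h were lower than host blood Ly6C- cells in 1 of 10, Ciita (-3.33, SE 0.90, adjusted p = 0.0425; 3.72% of genes), and the count was 3 without graft replicate AC and 0 without graft replicate B or either host library. Hosts were sorted at 24 h, so the 48 h comparisons differ in time as well. The grafts compared also had fewer genes above 0 than the host cells, and the part of this in low members was not tested.

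One spleen graft library of 36 h held more RNA of the H2-O chains and of markers of other cells. Whether that RNA came from other cells was not tested. Replicate C had 138 RPM of H2-Ob and 65.3 RPM of H2-Oa, and replicate B 42.1 and 9.2 RPM. B cell markers summed to 968 RPM in replicate C and 394 RPM in replicate B, and tissue macrophage markers to 4019 and 1198 RPM. H2-Aa was at 2767 RPM in replicate C and 2588 RPM in replicate B.

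Set side by side, the fitted difference at the Ly6Cint step lay above 0 for the 4 chain and invariant chain genes in all 5 sets of libraries, while the next step differed in direction. For H2-Aa, Ly6C- minus Ly6Cint was 0.48 (SE 0.29) in 7-week blood, -2.06 (SE 0.72) in wt blood, -0.63 (SE 0.41) in host spleen and -2.51 (SE 0.41) in host blood. H2-Ab1 and H2-Eb1 had every Ly6C- library above every Ly6Cint library in 7-week blood, and below in wt blood and in host blood. The share of all genes with such opposite steps was not computed, so this cannot be read as particular to them. No test was made across tables, which differ in age, strain background, cell preparation and scaling.

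**Figure D5:**
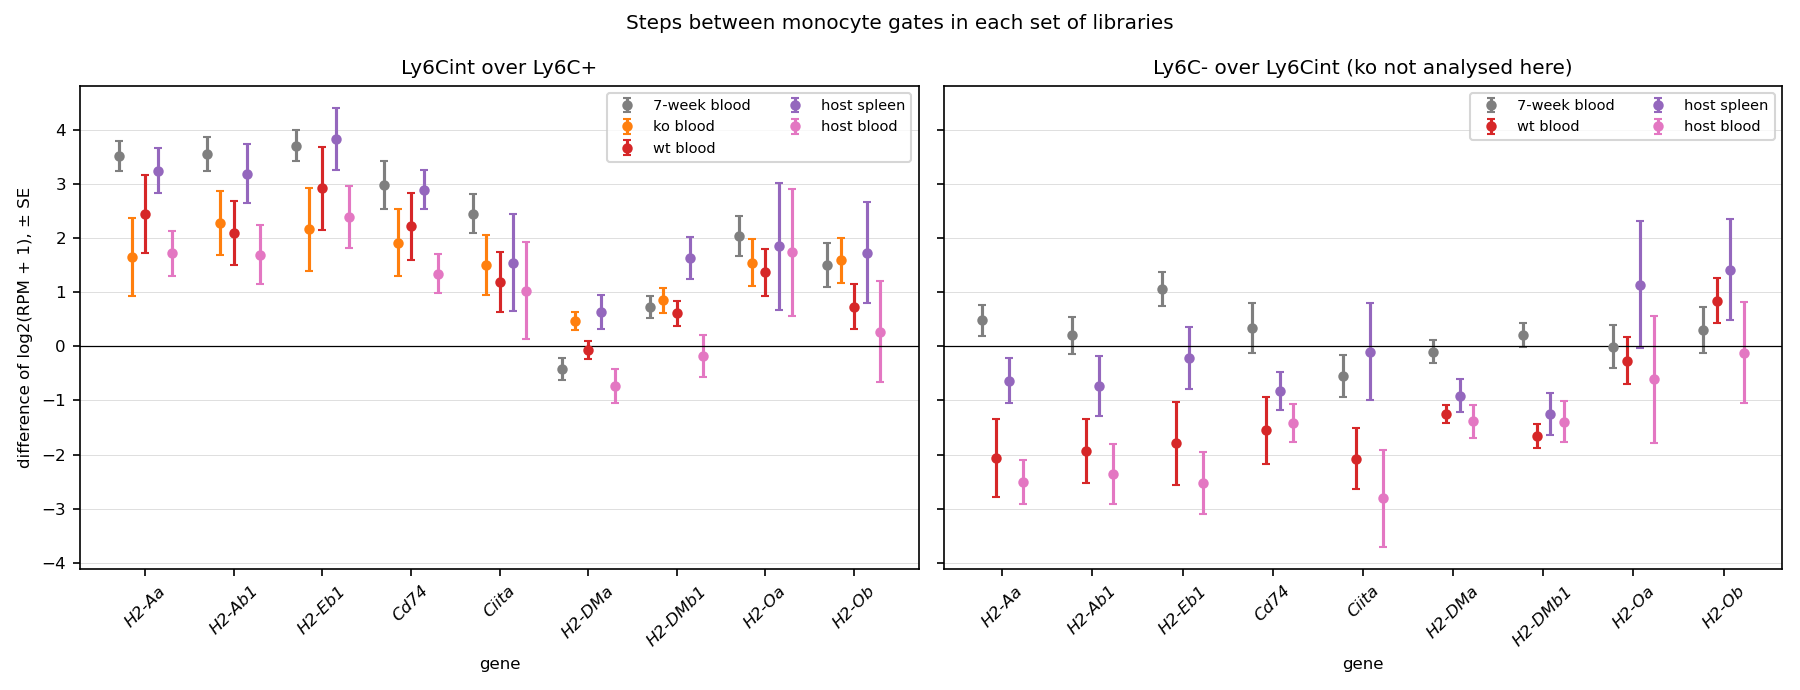
Difference of log2(RPM + 1) with SE for the members at the step Ly6Cint minus Ly6C+ (left) and Ly6C- minus Ly6Cint (right), in each set of libraries. On the left the 4 chain and invariant chain genes lie above 0 in all 5 sets; on the right H2-Aa is at 0.48 in 7-week blood and below 0 in the other sets.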

How the data were processed

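RNA sequencing of sorted mouse monocytes and progenitors was taken from 3 deposited tables (25, 16 and 26 libraries). Reads were handled with bcl2fastq, HISAT 0.1.5, SAMtools and HOMER against mm9, per the submitters' processing notes, and the annotation and counting options are not given in the sources used here. The 7-week and knockout tables were deposited by the authors as signal values, scaled read numbers per gene. Whole reads could be recovered from 100% of their values within 0.1 read, and RPM were computed with an assumed library total of 10000000, a total that is not stated. The transfer table was deposited by the authors as score values, rounded numbers scaled to nearly equal column totals, and was rescaled here to 1000000 per library.

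Since no table held raw counts, limma 3.58.1 (R 4.3.3) with an intensity trend was run on log2(RPM + 1), fitting each table whole with 1 mean per group, and edgeR 4.0.16 (quasi-likelihood, TMM) on recovered reads was the alternative. Genes needed 2 RPM in at least 3 (7-week) or 2 libraries, which left 11373, 11388 and 12096 genes, with Benjamini-Hochberg adjustment over them. The fits were tested on simulated data. Other alternatives were a pseudocount of 0.25 RPM, no filter, quantile scaling, a replicate block, each library left out, the compared libraries alone, and the knockout table without 1 cMoP library, the last chosen after seeing the data. In same-numbered libraries of different groups the median r of deviations was -0.00355, 0.00405 and 0.00718 in the 7-week, knockout and transfer tables. Single pairs ran from -0.299 to 0.385, from -0.322 to 0.411 and from -0.0347 to 0.0773. The median pools libraries that may or may not share animals, so it cannot exclude pairing within some groups. Replicate numbers were not used as pairs.

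The members and the gene lists were chosen with earlier results of these data known. Named were all members, the 2 called genes with the smallest p of each list in the Ly6Cint comparisons and in ko against wt Ly6Cint cells, and the 10 genes most alike. Promoter sequences are from RefSeq (GRCm38.p6) and gene positions from GENCODE on GRCm38. The files' build is mm9, and no coordinates were joined across builds.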

Additional observations from a re-analysis of the deposited data

Results flagged for a closer look

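In 40 pairs of a member and a group of 4 libraries, 2 had a library far from the others, where chance alone flags about 1 in 20 groups. H2-DMa was at 475.7 RPM in replicate 1 of 7-week marrow MDP, above the other 3 libraries. H2-DMb2 was at 0.3031 RPM, 1 read, in replicate 3 of 7-week cMoP and at 0 in the other 3.

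Steps that went one way in every library of one set and the other way in every library of another were also singled out, and none of these differences was tested. Separation is common in small groups. Every ko library lay above every wt library for 25.6% of all genes in the Ly6Cint gate. The share of all genes with such opposite steps was not computed, so the list cannot be read as particular to the members. In Ly6C- against Ly6Cint cells H2-Ab1 had a log2 difference of 0.2071 in 7-week blood, against -1.935 in wt blood, -2.359 in host blood and -0.7278 in host spleen. H2-Eb1 had 1.058 in 7-week blood, against -1.792 in wt blood and -2.53 in host blood. In Ly6Cint against Ly6C+ cells H2-DMa had 0.4688 in ko blood and 0.6413 in host spleen, against -0.7288 in host blood. In marrow Ly6C+ cells against cMoP H2-Ab1 had 1.212 in 7-week mice and -1.706 in 8-week mice, where cMoP replicate 1 stood apart. In spleen against blood of the hosts H2-DMa had 1.22 in Ly6Cint and 1.696 in Ly6C- cells, against -0.1496 in Ly6C+ cells. In grafts at 24 h against before transfer H2-Ob was flagged with 3.186 in spleen and -0.9298 in blood. In blood this rests on a near tie, since the highest graft library had 1.31464 RPM and the lowest before transfer 1.31465 RPM. The blood groups thus cannot be called apart. The blood value turned to 0.96 under quantile scaling, uncalled in both.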

How the results depend on the processing

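Counts of members called that moved by more than 1.5 times are given here, and the cause was not tested. At the 7-week step from Ly6Cint to Ly6C- in blood, 0 in place of 1 were called with no filter, with quantile scaling and with the compared libraries alone. With those alone, 5 in place of 8 were called in Ly6Cint and 5 in place of 8 in Ly6C- against Ly6C+ blood cells, where fewer libraries set the spread. In wt blood Ly6Cint against Ly6C+ cells, 0 in place of 1 were called with a pseudocount of 0.25, with no filter and with quantile scaling, and 5 with edgeR. In ko against wt Ly6C+ cells these first 3 settings gave 2 in place of 4. In 8-week cMoP against MDP quantile scaling gave 1 and edgeR 4 in place of 0, and in ko Ly6Cint against Ly6C+ cells edgeR gave 3 in place of 0. Without 8-week cMoP replicate 1 the counts were 1 (cMoP against MDP), 5 (marrow Ly6C+ against cMoP), 5 and 7 (wt Ly6Cint against Ly6C+, wt Ly6C- against Ly6Cint), 6 (ko Ly6Cint against Ly6C+), 7 and 8 (ko against wt Ly6C+ and Ly6Cint). In that fit 3 uncalled negative differences of marrow Ly6C+ cells against cMoP became called positive ones: Cd74 at 0.85, H2-Aa at 1.26 and H2-Eb1 at 1.03. Without cMoP replicate 2 the same differences were -2.33, -2.53 and -3.04.

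In the transfer table a pseudocount of 0.25 or no filter gave 0 in place of 2 for host blood Ly6Cint against Ly6C+ cells, 0 in place of 2 for spleen grafts at 48 h against 24 h (also 0 with quantile scaling) and 3 in place of 5 for spleen grafts against host Ly6Cint cells. No filter gave 3 in place of 5 for blood grafts at 48 h against 24 h, and 0 in place of 1 for blood grafts against host Ly6C- cells (also 0 with quantile scaling). Quantile scaling gave 1 in place of 0 for blood grafts against host Ly6Cint cells. With the replicate block 2 in place of 1 were called for host blood Ly6C- against Ly6Cint cells, 3 in place of 0 for blood grafts and 2 in place of 5 for spleen grafts against host Ly6Cint cells. No label says whether the replicate numbers pair the samples.

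Leaving out 1 library of the compared groups at a time, the counts ran from 0 to 1 (7-week Ly6C- against Ly6Cint, marrow against blood Ly6C-), 1 to 4 (7-week cMoP against MDP), 0 to 6 and 0 to 7 (8-week cMoP against MDP, Ly6C+ against cMoP), 0 to 2 (wt Ly6C- against Ly6Cint), 0 in all (wt Ly6Cint against Ly6C+), 2 in all (ko against wt Ly6C+) and 3 to 4 (ko against wt Ly6Cint). In the transfer table they ran from 0 to 2 (host blood Ly6Cint against Ly6C+), 0 to 1 (host blood Ly6C- against Ly6Cint), 0 to 3 (Ly6C-, spleen against blood), 3 to 4 (spleen grafts at 24 h against before), 1 to 7 and 0 to 2 (grafts at 48 h against 24 h in blood and spleen), 0 to 2 and 0 to 4 (grafts against host Ly6Cint in blood and spleen), and 0 to 3 and 2 to 7 (grafts against host Ly6C- in blood and spleen). Where this leaves a group with 1 library, that library is assumed to vary like the others. Of 3132 alternatives for single members 2835 kept their side of the threshold (98 of them uncalled with another sign or at 0), 201 lost a call, 90 gained one and 6 turned to a call of the other sign (the 3 members above, whose fit counts both as a library left out and as an added alternative). Quantile scaling brought the median difference of all genes in every comparison to between -0.07 and 0.06. A single read limits low members: H2-DMb2 and Ciita in marrow lie near it.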
